A study of Homo sapiens with 4 samples.

Results

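The genes described here are those of cholesterol and fatty acid synthesis: the enzymes of the mevalonate and sterol pathway, the SREBP proteins that control them, and the enzymes that make, lengthen and desaturate fatty acids. Of 36 listed genes, 32 had at least 1 probe set annotated to that gene alone, with 77 probe sets in all, out of 19775 genes and 54613 probe sets in the table. The probe sets of CYP51A1, ELOVL1 and FADS1 each carried a second gene symbol, so these genes were not analysed here. FDFT1 was also not analysed here. The rule lists genes by name and role and uses no measured value, but the list was drawn up with earlier results of these data known.

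Expression was measured on 4 Affymetrix 3′ arrays of cells labelled HuCCT1, an established human cholangiocarcinoma (bile duct cancer) line, grown in RPMI medium with fetal bovine serum and antibiotics. The labels call 2 arrays ARID1A wild type and 2 ARID1A knockout. ARID1A encodes a subunit of the SWI/SNF chromatin remodelling complex, and the labels say it was disrupted with a lentivirus that delivered Cas9 and 1 guide RNA, followed by puromycin and limiting dilution. By the labels, the knockout cells are thus clones that received the vector. The labels name neither a virus nor a selection for the wild-type cells, and they leave unsaid if the arrays within a group stem from different cultures or clones. The p-values thus reflect the spread among these 4 arrays alone, and that spread may be technical.

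All values are RMA values on a log2 scale as deposited, and a difference is the knockout-labelled mean minus the wild-type mean, given with its moderated standard error (SE) from limma. A gene was called when its limma p, after Benjamini-Hochberg adjustment over the 19775 genes, was under 0.05. Each gene was represented by its brightest probe set. When the arrays were compared for sample identity, 2 of 4 did not match the remaining pair. The differences below are therefore between labelled groups, and an effect of ARID1A loss cannot be told apart from a difference in the origin of the cells. ARID1A mRNA read 8.55 and 8.61 in the wild-type arrays and 6.15 and 5.95 in the knockout-labelled arrays (difference −2.53 ± 0.11 SE, limma adjusted p = 0.00014). Of its 4 probe sets, 3 were lower at the threshold and the dimmest was not. The position of these probe sets against the guide’s target was not examined. Of 8 measured markers of bile duct epithelium, 7 averaged above the 75th percentile of all probe sets in wild-type arrays, as did 6 in knockout-labelled arrays. Of the 8, 4 were called lower and 1 higher. Keratins KRT7 and KRT19 were lower (−2.32 and −0.92) and KRT8 was higher (0.82), though these and KRT18 stayed above 10 in every array. EPCAM averaged 12.1 against 7.38 and CFTR 7.86 against 3.46. By probe set, 1 of 4 passed for KRT7, 1 of 2 for KRT19 and 3 of 6 for CFTR, while KRT8 and EPCAM have 1 each, which passed. The 7 hepatocyte, 4 leukocyte and 4 endothelial markers measured were all below that percentile in both groups. Of 6 fibroblast markers, COL1A1 and LUM lay above it in wild-type arrays only. The part of these markers in the lipid gene results was not tested. Fewer cells of a type and less RNA per cell cannot be told apart in such bulk samples.

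Cholesterol is built from acetyl-CoA through mevalonate and isoprenoid diphosphates to squalene, which is closed into lanosterol and then trimmed, isomerised and reduced to cholesterol. When sterols run low in the endoplasmic reticulum, SCAP carries the SREBP factors to the Golgi, where they are cut and released to switch on genes of this pathway. INSIG proteins hold SCAP back when sterols are plentiful. Fatty acid synthesis starts from the same acetyl-CoA, which ACLY makes from citrate, and is under the same control, chiefly through SREBF1. Cells in serum can also take up cholesterol from lipoproteins.

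With the brightest probe set of each gene, calls among the early sterol genes were mostly higher and among the late ones mostly lower. The early calls of PMVK, MVD and ACAT2 were under 2-fold and were lost when some single arrays were left out. In the mevalonate steps 4 of 7 genes were higher in the knockout-labelled arrays and 0 were lower, whereas among the steps from lanosterol to cholesterol 4 of 7 were lower and 1 was higher. The median difference was 0.49 for the first group and −1.06 for the second, against 0.06 over all genes. The difference between these steps was not tested. In all, 14 of the 32 genes (43.8%) were called, against 38.7% of all genes. Of these, 8 were higher (21.5% of all genes were) and 6 were lower (17.2% of all genes were). The share of the 32 called is close to the background, so a high number of calls is not a feature of these genes. Most of them are bright, and among bright genes calls are more frequent: with genes under the 60th percentile of mean level left out, 57.7% of the members still tested were called against 73.7% of all genes. At least 2-fold differences with a call were found for IDI1 and SCD5, both higher, and for NSDHL, EBP, ELOVL6, DHCR7 and SC5D, all lower, which is 7 of 32 genes where 16.6% of all genes met the same rule. The groups did not overlap in 22 of the 32 genes, against 66.4% of all genes.

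**Figure D1:**
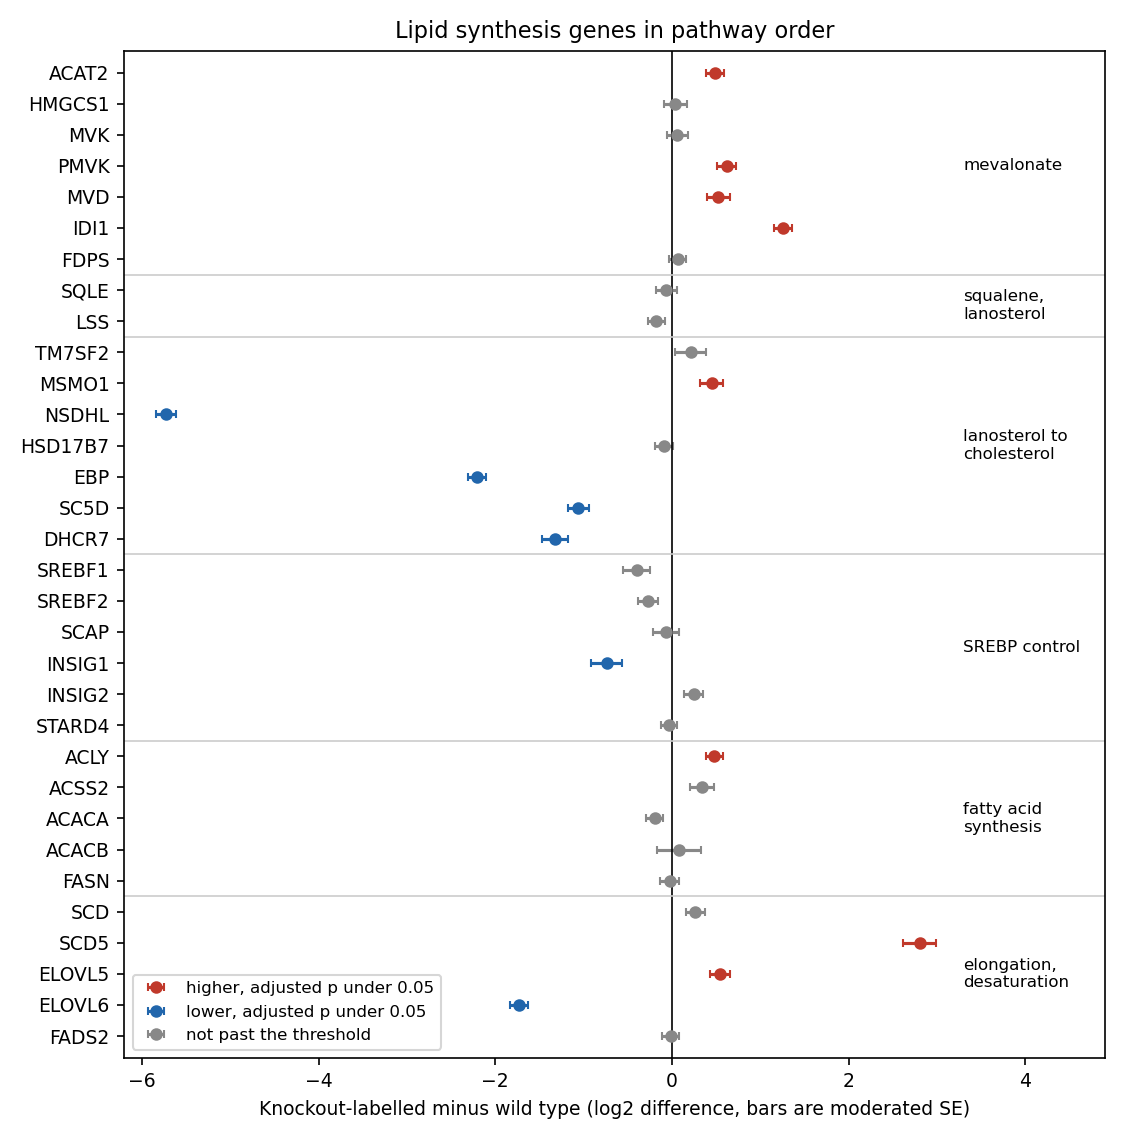
Knockout-labelled minus wild-type difference (log2, horizontal axis) of the 32 measured genes in pathway order, with points for the difference and bars for the moderated SE (2 arrays per group). Red points (higher) gather in the mevalonate steps and blue points (lower) in the late sterol steps, where NSDHL stands at −5.73; most genes of SREBP control and fatty acid synthesis are grey, meaning not past the threshold.

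The calls of lower genes depended less on single arrays than those of higher genes. The number called higher dropped from 8 to 2 without wild-type replicate 1 or without wild-type replicate 2, to 5 without knockout replicate 1 and to 3 without knockout replicate 2. IDI1 and SCD5 passed in all 4 of these fits. The number called lower was 5 in each of the 4, and INSIG1 was the gene lost each time. Over all genes the number called also dropped, from 7657 to 3939 when wild-type replicate 1 was left out and 4061 when wild-type replicate 2 was.

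Among the mevalonate enzymes the clearest difference was in IDI1, the isomerase that interconverts the isoprenoid building blocks. It read 8.56 and 8.51 in the wild-type arrays and 9.75 and 9.83 in the knockout-labelled arrays. The groups were well separated, and the difference was 1.26 ± 0.10 (2.39-fold, limma adjusted p = 0.000691). Of its 4 probe sets, 2 passed the threshold, at 1.26 and 1.24. Both are of the _x_at type, whose probes may also match other transcripts. The other 2 stood at 0.24 and 0.10, and without the _x_at and _s_at types IDI1 was represented by a dim probe set and was not called (0.10, adjusted p = 0.78).

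PMVK, phosphomevalonate kinase, read 7.73 and 7.88 in the wild type against 8.44 and 8.41 (0.62 ± 0.10, limma adjusted p = 0.00813). MVD, the decarboxylase that follows it, read 4.15 and 3.88 against 4.58 and 4.49 (0.52 ± 0.13, limma adjusted p = 0.0287). ACAT2, the cytosolic thiolase that joins acetyl-CoA units at the start of the route, read 8.31 and 8.29 against 8.72 and 8.86 (0.49 ± 0.10, limma adjusted p = 0.017). In all of them both knockout-labelled arrays lay above both wild-type arrays, but each difference was under 2-fold and each has 1 probe set. MVD lay near the median of all probe sets, and with values under 4.5 set to 4.5 its difference was 0.04 (adjusted p = 0.70). The MVD call was lost without any 1 of the 4 arrays (adjusted p from 0.0608 to 0.152), and the PMVK call without either wild-type array (0.0775 for replicate 1, and just above 0.05 for replicate 2). The ACAT2 call was lost without either wild-type array (0.113 and 0.12) and without knockout replicate 2 (0.0599).

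The other mevalonate genes gave no call with their brightest probe set. MVK, mevalonate kinase, averaged 6.85 against 6.91, with 0 of 4 probe sets past the threshold. FDPS, which makes farnesyl diphosphate, was bright in all arrays, at 10.50 and 10.43 in the wild type against 10.50 and 10.56. HMGCS1, which makes HMG-CoA, gave readings that depended on the probe set. Its brighter probe set read 7.82 and 7.61 against 7.67 and 7.84 (0.04 ± 0.13, limma adjusted p = 0.85). The dimmer one read 6.73 and 6.58 against 5.82 and 5.57, lower by 0.96 ± 0.14 (limma adjusted p over all probe sets = 0.00821). The mean of both was also lower (−0.46, adjusted p = 0.0183), so the direction for HMGCS1 is not settled by these data.

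The genes between farnesyl diphosphate and lanosterol showed no call. SQLE, squalene epoxidase, an oxygen-dependent step of the route, read 9.33 and 9.18 in the wild type against 9.10 and 9.28 (−0.06 ± 0.12, limma adjusted p = 0.73). LSS, which closes the ring system of lanosterol, read 8.38 and 8.34 against 8.15 and 8.21 (−0.18 ± 0.10, limma adjusted p = 0.22). The remaining probe sets of these genes, 3 of SQLE and 2 of LSS, did not pass either.

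NSDHL showed the largest difference of all 32 genes. It encodes a sterol dehydrogenase that acts with MSMO1 and HSD17B7 to strip methyl groups from lanosterol-derived sterols. Its brighter probe set read 8.37 and 8.52 in the wild-type arrays against 2.79 and 2.65 in the knockout-labelled arrays. The difference was −5.73 ± 0.11 (53.1-fold on the deposited scale, limma adjusted p = 2.06e-05), and with values under 4.5 set to 4.5 it was −3.95 (adjusted p = 0.0047). Among all probe sets its mean ranked at percentile 91.5 in wild-type arrays against percentile 27.0. RMA gives no detection call, so the lower value cannot be read as absence, and the fold is that of the deposited scale. The dimmer probe set moved the same way, from 7.54 and 7.74 to 2.87 and 3.16 (−4.63 ± 0.15).

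Its partners in the same demethylation read otherwise. MSMO1, the methylsterol monooxygenase, was slightly higher, at 10.47 and 10.23 in the wild type against 10.72 and 10.89. Its difference of 0.45 ± 0.13 lay at the edge of the threshold (limma adjusted p = 0.0481, and 0.0783 adjusted over all probe sets), and the call was lost without any 1 of the 4 arrays, where its adjusted p lay between 0.0911 and 0.239. HSD17B7, the keto reductase, read 8.63 and 8.51 against 8.46 and 8.50 (−0.09 ± 0.10, limma adjusted p = 0.55), in 1 probe set of the _x_at type. TM7SF2, a sterol reductase that acts just before them, read 6.07 and 6.13 against 6.54 and 6.08, with overlapping groups (0.21 ± 0.17, limma adjusted p = 0.41).

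The final enzymes of the route were lower together. EBP, the isomerase that shifts the ring double bond, read 10.77 and 10.74 in the wild type against 8.49 and 8.62 (−2.20 ± 0.10, 4.60-fold, limma adjusted p = 0.000148). DHCR7, the reductase that ends one branch of the route by making cholesterol, read 9.80 and 9.47 against 8.24 and 8.39 (−1.32 ± 0.15, 2.50-fold, limma adjusted p = 0.00207). SC5D, the desaturase that works between them, read 8.99 and 8.78 against 7.87 and 7.79 (−1.06 ± 0.12, 2.08-fold, limma adjusted p = 0.00201). In each the groups were clearly apart, yet the knockout-labelled means still lay at percentile 87.8 or above, unlike that of NSDHL. Of the EBP probe sets 3 of 4 passed, at −2.20, −2.08 and −0.61, and the mean of all 4 was −1.30 (adjusted p = 0.000292). Both DHCR7 probe sets passed, at −1.32 and −1.54. The second SC5D probe set lay near the bottom of every array, between 1.77 and 1.87, and did not pass. With _x_at and _s_at probe sets removed it alone represented SC5D, which was then not called (0.08, adjusted p = 0.64).

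**Figure D2:**
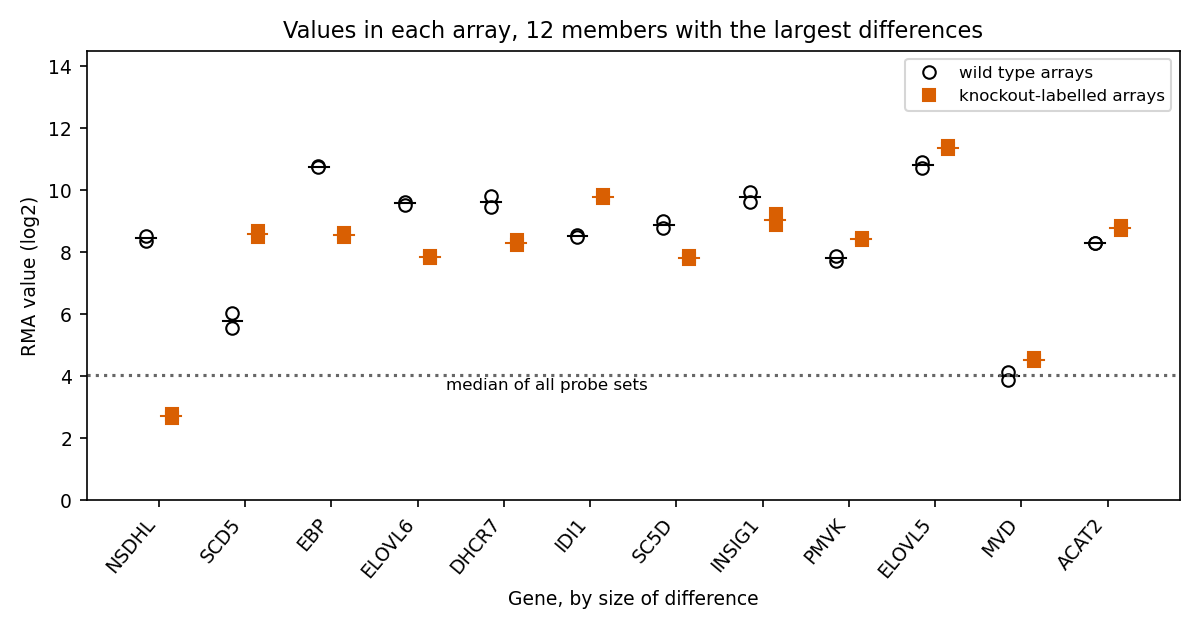
RMA value (log2, vertical axis) in each of the 4 arrays for the 12 called genes with the largest differences, with open circles for the wild-type arrays, filled squares for the knockout-labelled arrays, and short lines for the group means. Arrays of a group lie close together compared with the gap between groups for NSDHL, SCD5, EBP and ELOVL6, and for NSDHL the knockout-labelled values lie below the median of all probe sets.

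Of 6 genes of SREBP control and sterol transport, 1 was called, INSIG1, which was lower. SREBF1, which encodes the SREBP form that favours fatty acid genes, read 7.10 and 7.36 in the wild type against 6.98 and 6.68 (−0.40 ± 0.15, limma adjusted p = 0.10). SREBF2, whose product favours sterol genes, read 6.09 and 6.28 against 5.90 and 5.93 (−0.27 ± 0.11, limma adjusted p = 0.12). Both were lower in both knockout-labelled arrays but did not pass the threshold. SREBF1 passed when genes under the 60th percentile were left out (adjusted p = 0.0269) and with a variance trend (0.041). However, its dimmer probe set stood at 0.13 with overlapping groups, and the mean of both was not called (−0.14, adjusted p = 0.33). SREBF2 passed with the mean of its probe sets (−0.32, adjusted p = 0.0443). SREBP activity depends on cleavage of the protein, which mRNA levels do not measure.

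SCAP, the escort of the SREBP proteins, averaged 8.25 against 8.18, with overlapping groups (−0.07 ± 0.15, limma adjusted p = 0.77). STARD4, a carrier of cholesterol between membranes, read 6.74 and 6.72 against 6.67 and 6.73 (−0.03 ± 0.09, limma adjusted p = 0.84). INSIG1, itself a target of SREBP, read 9.94 and 9.63 against 8.87 and 9.22 (−0.74 ± 0.17, limma adjusted p = 0.0247). INSIG2 read 8.50 and 8.47 against 8.82 and 8.65 (0.25 ± 0.11, limma adjusted p = 0.14), and it passed with a variance trend (0.0392) and when genes under the 60th percentile were left out (0.0372). Of the 3 INSIG1 probe sets 2 passed and all were negative, between −0.78 and −0.59. The INSIG1 call was lost without any 1 of the 4 arrays, with adjusted p between 0.0501 and 0.169. Whether the difference of INSIG1 departs from that of INSIG2 was not tested.

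The DNA just before the start sites of these genes is shown because SREBP proteins act there, usually beside NF-Y and Sp1. Windows from 250 bases before to 50 bases after annotated starts were taken from RefSeq on GRCh38.p14. The table used here held 44 windows for 32 of the 36 listed genes, some with several starts. Those of FASN, SQLE, ACAT2 and FDFT1 were not analysed here. The motifs searched on both strands were TCACNCCAC for the sterol response element, CCAAT for NF-Y and GGGCGG for Sp1. The first was found in 1 of the 44 windows (2.27%), that of SREBF2, against 1.13% of all 35116 windows of the same length. CCAAT was found in 29 of 44 (65.9%) against 34.6%, and GGGCGG in 38 of 44 (86.4%) against 45.0%. Some windows of the same gene overlap, as for ACLY and SC5D, so a match can be counted more than once. By gene, with a match in any window counted, CCAAT occurred in 6 of the 7 called higher that had a window. It occurred in 5 of the 6 called lower and in 13 of the 16 not called. The share by gene over all promoters was not computed. The 200 bases before the start are given, 5′ to 3′, for SREBF2, which held the only match to the sterol element letters. They are also given for MVD, called higher though its call was lost without any 1 array, and for NSDHL and EBP. NSDHL and EBP had the largest differences in the late steps. Capitals mark matches to any of the 3 motifs on either strand. The printed bases of MVD and of EBP each held 3 CCAAT matches and 1 GGGCGG match. Those of NSDHL held 4 CCAAT matches, of which 2 overlap, and no GGGCGG match. A further CCAAT match of NSDHL, 228 bases before the start, lies in its window but outside the printed bases. A match is a description of the letters and not a site shown to be used. Only these exact letters were searched, so a window without a match may still hold an element.
The printed stretch of SREBF2 is chr22:41832905-41833104 (plus strand) and that of MVD chr16:88663092-88663291 (minus strand). That of NSDHL is chrX:152830863-152831062 (plus strand) and that of EBP chrX:48521608-48521807 (plus strand).
SREBF2: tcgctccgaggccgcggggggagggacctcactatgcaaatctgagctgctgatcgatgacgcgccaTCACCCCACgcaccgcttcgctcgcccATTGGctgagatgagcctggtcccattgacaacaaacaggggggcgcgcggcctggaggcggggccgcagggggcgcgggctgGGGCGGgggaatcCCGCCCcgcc
MVD: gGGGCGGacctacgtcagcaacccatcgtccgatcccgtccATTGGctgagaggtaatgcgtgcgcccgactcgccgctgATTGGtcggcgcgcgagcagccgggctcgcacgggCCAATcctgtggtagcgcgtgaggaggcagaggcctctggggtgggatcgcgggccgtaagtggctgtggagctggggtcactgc
NSDHL: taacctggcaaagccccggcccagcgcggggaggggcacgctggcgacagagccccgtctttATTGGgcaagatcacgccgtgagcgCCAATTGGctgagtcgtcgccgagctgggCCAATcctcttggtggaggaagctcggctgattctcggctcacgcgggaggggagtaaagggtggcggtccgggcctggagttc
EBP: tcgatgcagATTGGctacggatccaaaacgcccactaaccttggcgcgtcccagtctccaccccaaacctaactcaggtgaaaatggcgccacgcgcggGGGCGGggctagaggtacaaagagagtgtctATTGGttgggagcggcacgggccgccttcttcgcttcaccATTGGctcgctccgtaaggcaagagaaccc

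Of 5 genes of fatty acid synthesis proper, 1 was called with its brightest probe set. FASN, the multi-enzyme synthase, read 7.08 and 7.12 in the wild type against 7.16 and 6.99 (−0.03 ± 0.11, limma adjusted p = 0.89). ACLY, which supplies cytosolic acetyl-CoA from citrate, was bright and slightly higher, at 10.72 and 10.74 against 11.16 and 11.26 (0.48 ± 0.10, 1.39-fold, limma adjusted p = 0.0158). It was the only 1 of these 5 genes called. Its other 2 probe sets did not pass (0.28 and 0.14), and the mean of its 3 probe sets was not called (0.30, adjusted p = 0.0576). The ACLY call was also lost without either wild-type array (0.113 and 0.105) and without knockout replicate 2 (0.0578). ACSS2, which makes acetyl-CoA from acetate, read 5.63 and 5.93 against 6.12 and 6.12 (0.34 ± 0.13, limma adjusted p = 0.11).

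The acetyl-CoA carboxylases make malonyl-CoA, the building unit of fatty acids in the cytosol (ACACA) and a brake on fatty acid oxidation at mitochondria (ACACB). ACACA read 8.59 and 8.61 against 8.46 and 8.34 with its brighter probe set (−0.20 ± 0.10, limma adjusted p = 0.19). Its dimmer probe set read 7.07 and 7.42 against 6.37 and 5.99, lower by 1.07 ± 0.20 (limma adjusted p over all probe sets = 0.0166). The mean of both was called lower (−0.63, adjusted p = 0.0112), so the call for ACACA depended on the probe set. ACACB read 6.10 and 5.85 against 5.72 and 6.39, with overlapping groups (0.08 ± 0.24, limma adjusted p = 0.84), with 0 of 7 probe sets past the threshold.

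Desaturases and elongases held large differences both ways. SCD5, a desaturase that introduces the first double bond into saturated fatty acids, read 5.55 and 6.03 in the wild type against 8.69 and 8.50. The groups were far apart, with a difference of 2.80 ± 0.19 (6.98-fold, limma adjusted p = 0.000429). Only 1 of its 4 probe sets passed, and the other 3 stood between −0.28 and −0.02 with wild-type means from 2.45 to 4.03. The mean of all 4 was 0.60 (adjusted p = 0.00417). SCD, its more abundant relative in many tissues, read 11.21 and 11.03 against 11.36 and 11.40 (0.26 ± 0.11, limma adjusted p = 0.13), with 0 of 4 probe sets past the threshold. SCD was called with a variance trend (adjusted p = 0.00818) and when genes under the 60th percentile were left out (0.0301). Its dimmer probe sets stood at −0.16, 0.17 and 0.15, and the mean of all 4 was not called (0.11, adjusted p = 0.48). Whether the difference of SCD5 departs from that of SCD was not tested.

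ELOVL6, which lengthens saturated and monounsaturated chains, read 9.63 and 9.52 against 7.82 and 7.86 (−1.73 ± 0.10, 3.32-fold, limma adjusted p = 0.000272). All 3 of its probe sets passed, at −1.73, −1.85 and −1.12. ELOVL5, which lengthens polyunsaturated chains, read 10.92 and 10.73 against 11.32 and 11.43 (0.55 ± 0.12, limma adjusted p = 0.0172). Of its 4 probe sets 2 passed and all were positive, from 0.29 to 0.77. These elongases thus went opposite ways, ELOVL6 down and ELOVL5 slightly up. The ELOVL5 call was lost without any 1 of the 4 arrays, with adjusted p between 0.0585 and 0.122. FADS2, the desaturase that starts the polyunsaturated route, read 6.11 and 6.13 against 6.12 and 6.09 (−0.02 ± 0.09, limma adjusted p = 0.93).

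Several probe sets were available for 21 of the 32 genes. In 3 of them, NSDHL, DHCR7 and ELOVL6, every probe set passed in the same direction. In 9 genes some but not all passed, in the other 9 none did, and in 0 genes did probe sets pass in opposite directions. By probe set, 24 of 77 passed (31.2%), 9 higher and 15 lower, against 26.9% of all 54613 probe sets. HMGCS1 and ACACA were genes whose dimmer probe set alone passed.

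**Figure D3:**
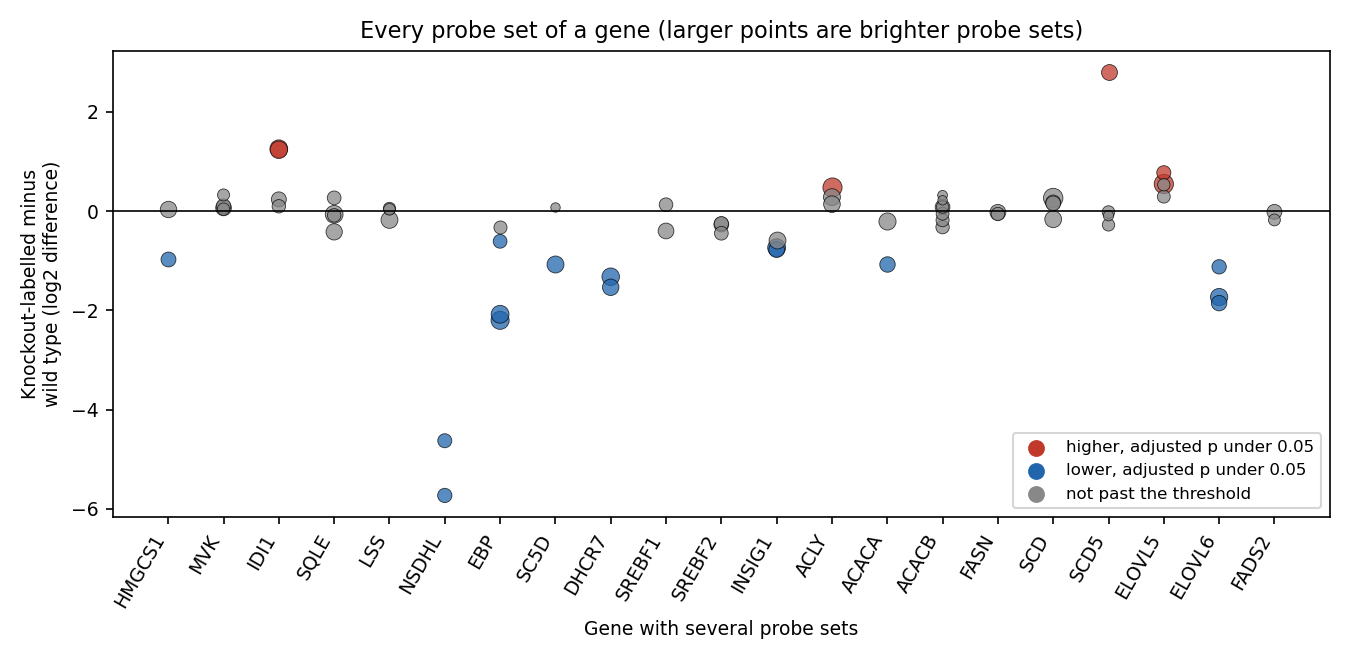
Difference (knockout-labelled minus wild type, log2, vertical axis) of every probe set of the 21 genes with several, with point area growing with the mean level of the probe set and colour giving the call over all probe sets. The probe sets of NSDHL, DHCR7 and ELOVL6 lie below 0 together, whereas for SCD5 1 probe set lies at 2.80 and the other 3 near 0.

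Genes around this pathway differed in both directions. Of 79 measured genes in 6 lists of lipid handling, 26 were higher and 22 lower (60.8% called against 38.7% of all genes). Of all genes 21.5% were higher and 17.2% lower, and none of the lists below was tested against these shares. With genes under the 60th percentile of mean level left out, 27 were higher and 20 lower of 59, where 73.7% of all genes were called. Without wild-type replicate 1 these counts were 14 and 9, without wild-type replicate 2 they were 15 and 7, and with values under 4.5 set to 4.5 the number lower was 12.

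Of 14 genes of sterol sensing, uptake, storage and export, 6 were higher and 4 lower, with a median difference of 0.01. NPC2, which carries cholesterol out of lysosomes, read 11.77 and 11.74 in the wild type against 9.78 and 9.73 (−2.00 ± 0.09, limma adjusted p = 0.000153). ABCA1, the cholesterol exporter, read 8.53 and 8.77 against 9.87 and 10.02 (1.30 ± 0.13, limma adjusted p = 0.00147). Of its 4 probe sets, 2 passed. OSBP, an oxysterol-binding protein, differed by −1.27 ± 0.11. The proteases MBTPS1 and MBTPS2, which release SREBP in the Golgi, were higher by 0.43 ± 0.10 and 0.78 ± 0.10. Only 1 of 2 MBTPS1 probe sets and 1 of 3 MBTPS2 probe sets passed.

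Isoprenoid branches leave the route at farnesyl diphosphate, and of 12 such genes 2 were higher and 5 lower (median −0.21). FNTB, a protein farnesyltransferase subunit, read 4.60 and 4.77 against 2.87 and 1.93 (−2.29 ± 0.32), from somewhat above the median of all probe sets to below it. COQ2, an enzyme of coenzyme Q synthesis, differed by −1.58 ± 0.10, and PGGT1B, a geranylgeranyl transferase subunit, by 1.13 ± 0.11. Of the 3 PGGT1B probe sets, 1 passed.

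Of 18 genes of fatty acid supply, elongation and activation, 5 were higher and 7 lower (median −0.24). MID1IP1, which promotes assembly of acetyl-CoA carboxylase, read 6.86 and 7.10 against 3.25 and 3.14 (−3.78 ± 0.12, limma adjusted p = 6.37e-05). ACSL5, an acyl-CoA synthetase, read 8.59 and 8.51 against 4.96 and 4.84 (−3.64 ± 0.10). ELOVL2, an elongase of polyunsaturated chains, was higher by 1.40 ± 0.22 but lay below or near the median of all probe sets. Of its 2 probe sets, 1 passed.

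Of 16 genes of fatty acid oxidation, 7 were higher and 2 lower, where 21.5% of all genes were higher and 17.2% lower. Their median difference was 0.33 against 0.06 over all genes, and this contrast was not tested. ACAA2, the mitochondrial thiolase that ends a round of oxidation, read 7.95 and 8.13 against 10.13 and 10.08 (2.07 ± 0.11, limma adjusted p = 0.000212). Of its 3 probe sets, 2 passed. CPT1A, which admits fatty acids to mitochondria, read 6.49 and 6.69 against 8.51 and 8.37 (1.85 ± 0.12), and all 4 of its probe sets passed. PPARA, a nuclear receptor that drives oxidation genes, differed by −1.43 ± 0.14, with 4 of 9 probe sets past the threshold. Of 12 genes of triglyceride and phospholipid synthesis and storage, 4 were higher and 2 lower (median 0.19). PLIN2, the lipid droplet coat gene, stood at 1.74 ± 0.11, with 1 of 2 probe sets past the threshold. The acyltransferases DGAT2 and DGAT1 stood at 0.77 ± 0.11 and −0.77 ± 0.12. A list of 7 genes held subunits of the AMPK kinase, which restrains lipid synthesis, and the separate kinase STK11. In it 2 were higher and 2 lower (median 0.14), with PRKAB2 at −1.25 ± 0.16, PRKAB1 at 0.88 ± 0.12 and PRKAG1 at −0.57 ± 0.11. For PRKAB2 2 of 3 probe sets passed, and for PRKAB1 1 of 2.

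**Figure D4:**
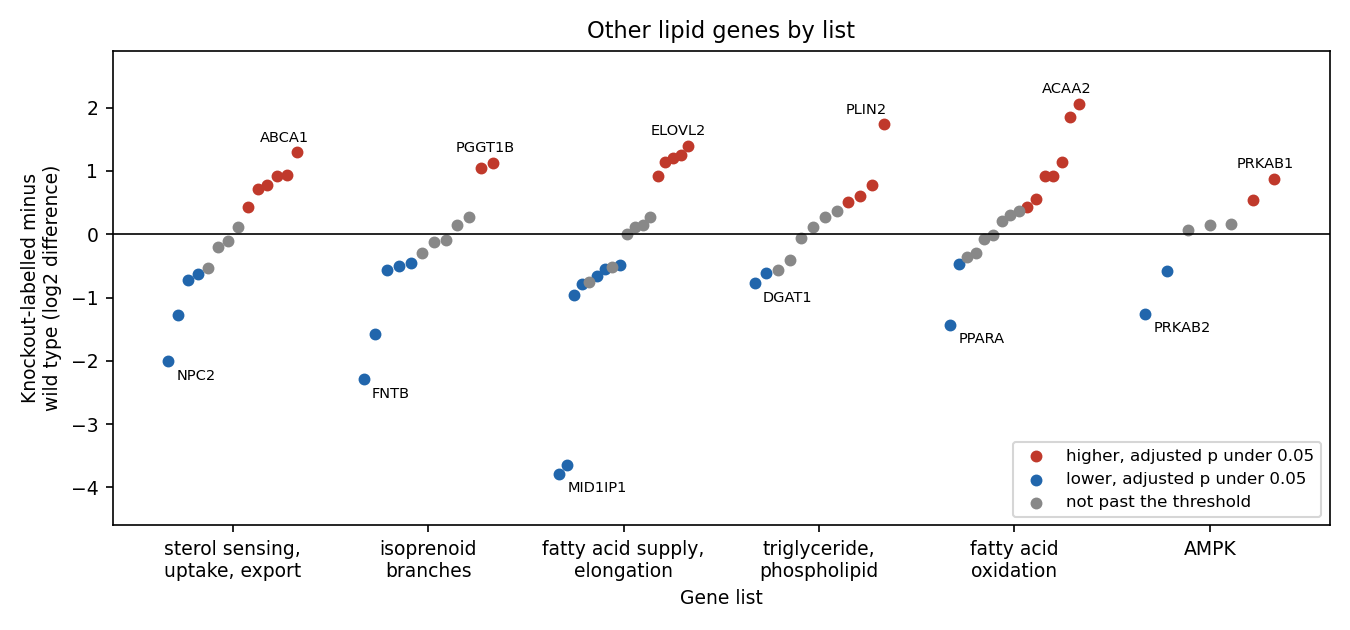
Difference (knockout-labelled minus wild type, log2, vertical axis) of 79 other lipid genes in 6 lists, each point a gene, ordered by value within its list, with the lowest and highest gene named. Every list holds genes on both sides of 0, MID1IP1 lies lowest at −3.78 and ACAA2 highest at 2.07.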

How the data were processed

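Per the submitters' processing notes the authors used RMA and affy (versions not given in the sources used here). The deposited table holds 1 column of log2 values per array, with array medians between 3.99 and 4.03. RMA corrects background, quantile normalizes arrays and summarises probe sets, so it removes overall brightness differences and gives no detection call. Precision is limited by having 2 arrays per group.

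Gene symbols came from the 2016 platform annotation, which gave 41091 of 54613 probe sets 1 symbol, 1801 several and 11721 none, and 41037 of the first matched RefSeq on GRCh38.p14 by gene identifier. For each gene the brightest probe set, by its mean across arrays, was kept. The comparison used lmFit and eBayes of limma 3.58.1 (R 4.3.3), without covariates or filters, with Benjamini-Hochberg adjustment over all genes, or over all probe sets where stated. The fit was also run on simulated data with few changed genes, unlike these data, which checks the code and not the calls given here. All members are named, those with the 12 largest called differences, the paralogues and those with discordant probe sets in full. In each other list up to 3 called genes are named by size of difference, and MBTPS1 and MBTPS2 were named after their values were seen. Promoter windows were searched in Python 3.11.15.

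Same-numbered arrays of the 2 groups deviated from their group means with a correlation of −0.10 across genes. The number was therefore not taken to pair them, and it was used as a block only in an alternative. Other alternatives were the variance model, the choice of probe sets, filters on dim genes, scaling between arrays, a floor and leaving out each array. The members and lists were chosen with earlier results of these data known.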

Additional observations from a re-analysis of the deposited data

How the results depend on the processing

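Of 495 values of single members under alternative settings, 448 kept their side of the threshold and, where called, their direction. A call was lost with its direction kept in 36 and gained with its direction kept in 9. In the other 2 the sign changed. EBP, NSDHL, DHCR7, ELOVL6 and SCD5 were called under every setting that gave them a value. SC5D stood at 0.0777 and lost its call with _x_at and _s_at probe sets removed, which leaves only its dim probe set, and HMGCS1, uncalled otherwise, was called at −0.46 with the mean of its probe sets. ARID1A stayed called in all 15 alternatives, between −2.63 and −1.60, and could not be tested without _x_at and _s_at probe sets, since it has no other. Leaving out 1 array at a time gave 3939 to 6220 genes called of all genes, 2 to 5 members called higher, 14 to 24 other lipid genes higher, 7 to 19 lower, and, by probe set of the members, 1 to 3 higher and 7 to 13 lower. A fit on 3 arrays assumes that the lone array varies like the other group. Without _x_at and _s_at probe sets 2 of 22 members were called higher, and with values under 4.5 set to 4.5 there were 5 members higher and 12 other lipid genes lower, with 26.1% of all genes called. With the replicate block 5 probe sets of members were higher in place of 9, and 37.5% of members and 33.8% of all genes were called. INSIG1 and MSMO1 lost their calls with that block (adjusted p = 0.0512 and 0.0951). A crossed replicate block, added after the data were seen because the correlation of same-numbered arrays was slightly below 0, gave 5 such probe sets and 7301 genes. The causes of these shifts were not tested. Low signal limits NSDHL in the knockout-labelled arrays and the dim probe set of SC5D, while MVD and the other SCD5 probe sets lay around the median or below it.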

Other observations

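The measured protein-coding genes next to NSDHL and EBP in the RefSeq gene order were looked at after the values of both were seen. Beside NSDHL, ZNF185 was also much lower in the knockout-labelled arrays, with a mean of 4.45 against 8.98 in the wild type (−4.53 ± 0.25, limma adjusted p = 0.000229). CETN2, on the other side, was lower by less, at 8.81 against 9.69 (−0.87 ± 0.12, limma adjusted p = 0.00381). Beside EBP, FTSJ1 averaged 7.37 against 10.2 (−2.79 ± 0.12, limma adjusted p = 0.000124), while TBC1D25 on the other side was not called (−0.35 ± 0.14, adjusted p = 0.11). Of the 8 nearest measured neighbours of each gene, 4 on either side, 2 were lower and 1 higher around NSDHL. Around EBP 3 were lower and 0 higher. Of all genes 17.2% were lower and 21.5% higher. Around NSDHL all neighbours but CETN2 and ZNF185 had wild-type means from 2.48 (MAGEA1) to 4.31 (PNMA3). The median of all probe sets was 4.05. PNMA6A, the 1 called higher, averaged 2.57 in the wild type against 3.13. Beside EBP, SSX1 and SSX3 were also dim (wild-type means 2.11 and 3.67), though SLC38A5 was called lower from 4.39. Low signal thus limits these counts, which do not settle if lower genes are more frequent there.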
